A study of Mus musculus with 7 samples.

Results

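Pdyn-class cells are GABAergic cells of mouse forebrain sections that held transcripts of Pdyn and Ppp1r1b and few of Penk. Members were chosen by raw transcript counts per segmented cell: Gad1 and Gad2 together at least 3, Ppp1r1b at least 3, Pdyn at least 2, Penk at most 2, Sst at most 3, Slc17a6 at most 2 and Slc17a7 at most 3. The rule took 2921 of 384076 cells, which is 0.761% (95% Wilson interval 0.7335% to 0.7885%, counting error only). The study measured 297 genes by Xenium, an in situ method that decodes single transcripts in tissue, on 7 coronal hemisections (10 µm, fresh-frozen) from wild-type mice. All sections carried the same genotype and no treatment is given, so position is the factor that differs: posterior (bregma -0.94 mm, replicates 1, 3 and 4), intermediate (bregma -0.70 to -0.82 mm, replicates 1 and 2) and anterior (bregma -0.58 mm, replicates 1 and 2). One slide carried posterior replicate 1 with all intermediate and anterior sections, and the other carried posterior replicates 3 and 4. The study was made to examine anterior thalamic neurons, and these cells are a different population that the same sections held. The labels do not say that replicates came from separate animals, so the p-values rest on differences among sections that may be technical.

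Projection neurons of the striatum are GABAergic and rich in the dopamine-regulated phosphatase inhibitor encoded by Ppp1r1b. They are commonly divided into direct pathway neurons, which make the dynorphin precursor Pdyn, and indirect pathway neurons, which make the enkephalin precursor Penk. Neurons with related programmes are also known from the central amygdala and the ventral striatum. A second division runs through the striatum itself, between striosomes, which are rich in the mu opioid receptor Oprm1, and the surrounding matrix, which is rich in calbindin (Calb1).

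Sections held 50169 to 60720 cells each, with 17438577 to 23432215 transcripts. Posterior sections gave 335, 368 and 236 members, intermediate sections 513 and 500, and anterior sections 438 and 531. The members held 1120999 transcripts, with a median of 370 per cell (10th to 90th percentile 195 to 588). The median member held 300.5 transcripts in posterior replicate 3 and between 355 and 390.5 in the other sections. Control probes gave 0.694 counts per member, spread over 6 or more probes, so the background is at most 0.116 counts per probe and member. Apart from their section suffix, 8 cell barcodes occurred in more than one section, and 0 of these were members.

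The values that chose the members are a description and no result. The median member held 4 Pdyn transcripts (10th to 90th percentile 2 to 10, highest 26) and 19 Ppp1r1b transcripts. At the threshold itself stood 724 members with 2 Pdyn transcripts, and 329 members held 10 or more. Penk was at 0 in 686 members (23.5%) and at 1 or 2 in the others. Cells that met all other conditions numbered 15685, and the limit on Penk kept 18.6% of them. The remaining 12764 cells, which held both peptide precursors, were deeper, with a median of 503 transcripts.

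Across the Pdyn threshold, the 724 members with 2 transcripts averaged 3.22 transcripts of Foxp2 per cell, 1.42 of Col6a1 and 2.61 of Strip2. The 1274 cells just outside, with 1 Pdyn transcript, averaged 2.61 of Foxp2, 0.825 of Col6a1 and 1.84 of Strip2. Across the Penk threshold the cells were close to each other. The 1196 members with 2 Penk transcripts averaged 4.77 transcripts of Foxp2, 2.99 of Col6a1 and 0.520 of Grik3, and the 1250 cells with 3 averaged 5.10, 3.02 and 0.578 of the same genes. The cells with both precursors averaged 4.63 ± 0.246 transcripts of Foxp2 and 3.12 ± 0.326 of Col6a1, and 1.28 ± 0.120 of Grik3 (SD, n = 7 sections).

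The first comparison asked how far members carried genes of striatal projection neurons that the rule had not used. The set against them was the 55213 other GABAergic cells. These met the same conditions on Gad1, Gad2, Sst, Slc17a6 and Slc17a7 and held at most 2 Ppp1r1b transcripts. The condition on Gad1 and Gad2 is broad, since 181109 cells met it, 47.15% of all cells. The name other GABAergic cells therefore stands for these conditions and not for a checked cell type. All 7 measured striatal genes outside the rule were higher in members: the transcription factor genes Bcl11b, Foxp1 and Meis2, the cAMP phosphodiesterase gene Pde7b, the guanylyl cyclase subunit gene Gucy1a1, Strip2 and the wolframin gene Wfs1. Their median log2 difference was 3.54, beside -0.23 over the 289 genes tested. Several of these genes were lower in 2 sub-clusters of 134 and 146 members, which are described with the other sub-clusters.

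Bcl11b gave 4.65, 6.43 and 6.67 transcripts per member (lowest, median and highest section), against 0.682, 0.746 and 0.799 in other GABAergic cells. Foxp1 gave 6.09, 7.89 and 10.2 transcripts per member and 0.906, 1.08 and 1.19 in other GABAergic cells. Pde7b averaged 10.6 ± 1.08 transcripts per member and 1.203 ± 0.172 in other GABAergic cells (SD, n = 7 sections each). For each of these genes the lowest member value stood above the highest value of the other cells. The log2 differences were 3.65 ± 0.07 for Bcl11b, 3.54 ± 0.10 for Foxp1, 3.78 ± 0.07 for Pde7b, 4.12 ± 0.10 for Strip2, 2.55 ± 0.09 for Meis2, 2.25 ± 0.10 for Wfs1 and 1.51 ± 0.05 for Gucy1a1 (SE). Each had an adjusted p of 4.62e-09 or lower in edgeR's quasi-likelihood test on sums per section. A transcript of Bcl11b was seen in 96.8% of members, at a median of 370 transcripts per cell, and in 37.9% of other GABAergic cells, at a median of 286.

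**Figure D1:**
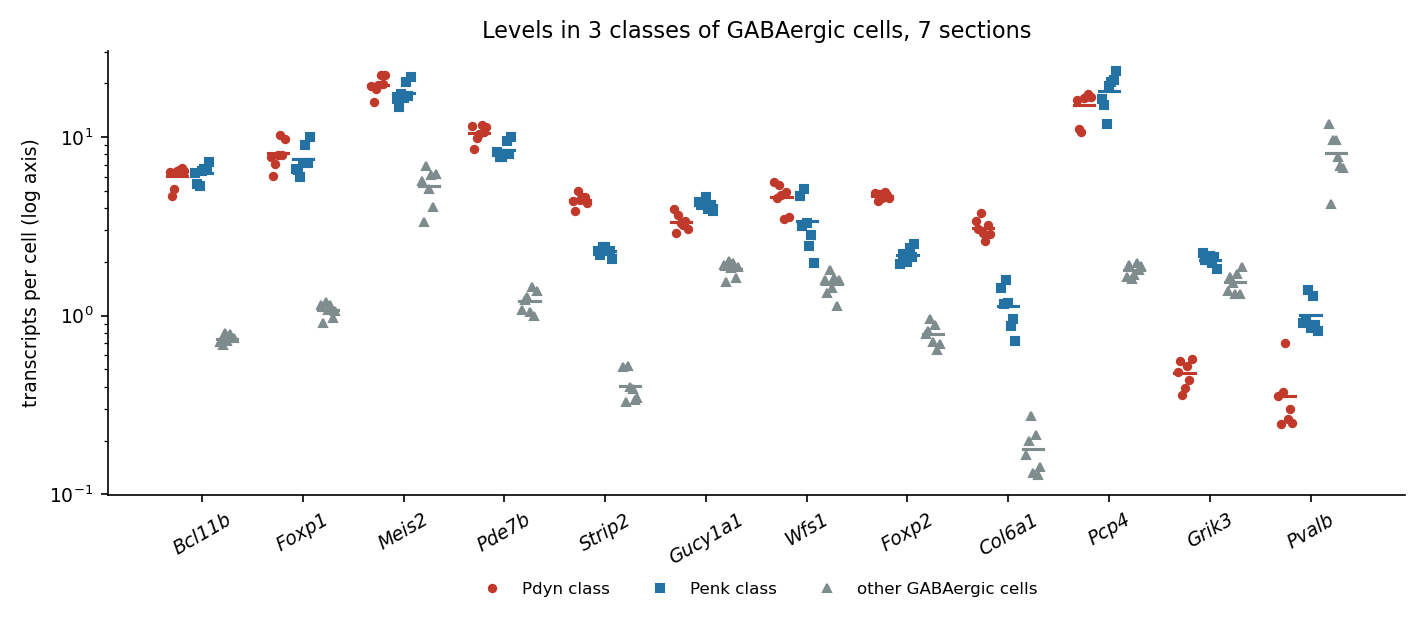
Transcripts per cell (log axis) of 12 genes in Pdyn-class cells, Penk-class cells and other GABAergic cells. Each point is 1 of 7 sections and the bar is their mean. Bcl11b, Foxp1 and Pde7b differ less between the Pdyn and Penk classes than from the lower levels of other GABAergic cells. Foxp2, Col6a1 and Grik3 separate the Pdyn class from the Penk class in every section.

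Of the 289 genes, 240 passed the test (adjusted p under 0.05, 83.0%), 105 of them higher in members (36.3%) and 135 lower (46.7%), so a call in itself says little here. The largest increase was that of Col6a1, a collagen VI chain gene, with 3.11 ± 0.379 transcripts per member and 0.180 ± 0.0537 in other GABAergic cells. Its log2 difference was 4.79 ± 0.12 (SE, edgeR adjusted p = 3.35e-11). Col6a1 is also on the leptomeningeal fibroblast list, of whose 9 genes 7 were lower in members and 1, Col6a1, was higher. Pcp4, which encodes a calmodulin-binding peptide, rose by 3.69, the synaptotagmin gene Syt6 by 3.59, Gm19410 by 3.28, Foxp2 by 3.23, the receptor-associated gene Gsg1l by 3.02 and Necab2 by 2.72 on the log2 scale. Of the 3 striosome genes, 2 were higher in members and Oprm1 was lower (-0.40), a call lost with stricter gates (-0.31). Grik3, of the indirect pathway list, was lower as well (-1.05). Guidance genes were divided: of 24 tested, 10 were higher and 9 lower, with Sema3a at 2.22, Sema3e at 2.11, Epha8 at 2.03 and Epha4 at 1.98. The activity-regulated gene Arc was higher in members (1.54 ± 0.18) and Nrn1 lower (-1.32 ± 0.12).

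Markers of interneurons lay mainly on the other side. Of 13 tested, 9 were lower in members and 2 higher, with a median log2 difference of -1.03. Pvalb, the parvalbumin gene, gave 0.247, 0.301 and 0.704 transcripts per member (lowest, median and highest section), against 4.23, 7.70 and 11.9 in other GABAergic cells. Its log2 difference was -3.89 ± 0.15, that of Btbd11 -3.25 ± 0.14, that of the calretinin gene Calb2 -3.23 ± 0.15 and that of the complexin gene Cplx3 -2.64 ± 0.26. Outside the interneuron list, the potassium channel subunit gene Kcnmb2 was at -2.60 ± 0.22. Nr2f2, a nuclear receptor gene of other telencephalic lineages, was at -3.01 ± 0.12. Most glial and vascular lists moved with this comparison as well. Lower in members were 12 of 13 endothelial genes, 6 of 8 astrocyte genes and 5 of 6 mural cell genes. So were 3 of 3 oligodendrocyte genes and 3 of 3 oligodendrocyte precursor genes, while 1 endothelial and 2 astrocyte genes were higher. Microglial and macrophage genes did not follow, with 3 of 9 higher in members and 1 lower. The summed endothelial level was 3.06 to 5.33 transcripts per member and 6.50 to 8.41 per other GABAergic cell, and the astrocyte level 8.09 to 10.1 per member and 16.8 to 23.3 per other GABAergic cell. At most 10% of transcripts came from oligodendrocyte-lineage, astrocyte, microglial and endothelial genes in 85.5% of members and 41.7% of other GABAergic cells. Among those cells 243 genes passed, and the 7 striatal genes were still higher in members. The number of higher against lower calls depended on scaling: 55 against 203 with library size and 68 against 189 with the number of cells, where the median over all genes lay at -1.12 and -0.87.

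The second comparison set members beside Penk-class cells, the 20294 cells with at least 3 Penk and at most 1 Pdyn transcripts and otherwise the same conditions, to find what else divides the 2 peptide classes. Members carried more of Col6a1, Foxp2 and Strip2 and less of Grik3, Nell1 and Necab1 in each of the 7 sections. Of 289 genes, 203 passed (70.2%), 97 of them higher in members (33.6%) and 106 lower (36.7%). Genes of striatal projection neurons differed less here than from other GABAergic cells. The median Penk-class cell held 401 transcripts.

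Foxp2, a forkhead transcription factor gene, gave 4.37, 4.75 and 4.90 transcripts per member (lowest, median and highest section), against 1.94, 2.12 and 2.53 in Penk-class cells. The groups did not overlap, and members were higher by 1.49 ± 0.06 on the log2 scale (SE, edgeR adjusted p = 8.26e-10). Col6a1 gave 2.60, 3.04 and 3.75 transcripts per member and 0.718, 1.16 and 1.59 per Penk-class cell, again with no overlap (1.89 ± 0.09, edgeR adjusted p = 1.90e-09). Strip2, whose product binds the striatin complex, gave 3.85, 4.44 and 4.98 transcripts per member and 2.08, 2.31 and 2.43 per Penk-class cell (1.35 ± 0.05, edgeR adjusted p = 6.26e-10). The other genes among the 10 largest increases were Cpne6 (1.31), Rasl10a (1.304), the exchange factor gene Rasgrf2 (1.27), Zcchc12 (1.24), the vesicle GTPase gene Rab3b (1.19), the cadherin gene Cdh13 (1.19) and the guidance gene Sema3a (1.17).

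Grik3, which encodes a kainate receptor subunit and was the one measured gene of the indirect pathway list outside the rule, went the other way. It gave 0.360, 0.487 and 0.571 transcripts per member, against 1.83, 2.06 and 2.24 in Penk-class cells, with a log2 difference of -1.73 ± 0.10 (SE, edgeR adjusted p = 2.07e-08). Necab1, a neuronal calcium-binding protein gene, averaged 1.22 ± 0.0986 transcripts per member and 3.46 ± 0.145 per Penk-class cell (SD, n = 7 each; log2 difference -1.11). Nell1, which encodes a secreted glycoprotein, averaged 0.185 ± 0.0557 per member and 0.778 ± 0.0387 per Penk-class cell (-1.72). Of the direct pathway list, 2 genes outside the rule were measured. Pcp4 averaged 15.03 ± 2.87 transcripts per member and 18.2 ± 3.97 per Penk-class cell, with a log2 difference of 0.12 ± 0.06 that did not pass (edgeR adjusted p = 0.0940) and turned to -0.13 with library size and -0.27 with the number of cells. The relaxin receptor gene Rxfp1, at 0.0203 transcripts per member and 0.0476 per Penk-class cell, lay under the upper bound of 0.116 counts per control probe, which does not place it against the actual control level, and its call on the lower side (-0.86) held in 6 of 7 sections.

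**Figure D2:**
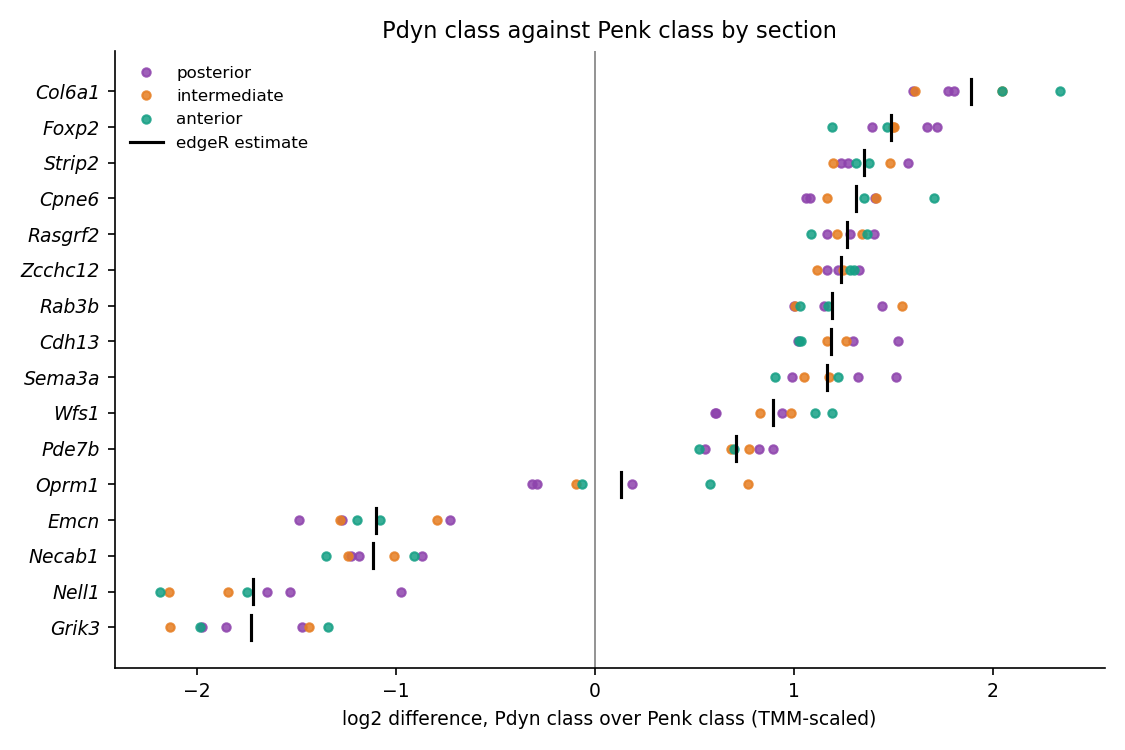
Log2 difference of Pdyn-class over Penk-class cells on TMM-scaled counts for 16 genes, with 1 point per section coloured by position and a black bar at edgeR's estimate. Points of Col6a1, Foxp2 and Strip2 lie right of 0 in all 7 sections, those of Grik3 and Nell1 left of 0 in all 7, and those of Oprm1 on both sides.

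Of the 7 striatal genes, 6 passed and were higher in members, with a median of 0.54 beside -0.07 over all genes. Wfs1 was at 0.90 ± 0.07, Pde7b at 0.71 ± 0.05, Meis2 at 0.54 ± 0.04, Foxp1 at 0.50 ± 0.06 and Bcl11b at 0.33 ± 0.05, and Bcl11b turned to -0.06 when scaled by the number of cells and did not pass with library size (0.07) or stricter gates (0.13). Gucy1a1, at 0.06 ± 0.06, did not pass (edgeR adjusted p = 0.362) and was lower in members with library size (-0.19) and with the number of cells (-0.33). Of the 3 striosome genes, Foxp2 and the semaphorin gene Sema5b (0.59 ± 0.10) passed, and Sema5b did not pass with the number of cells (0.20). Oprm1 gave 0.412, 0.436 and 0.702 transcripts per member and 0.485, 0.563 and 0.770 per Penk-class cell, and its difference of 0.13 ± 0.13 did not pass (edgeR adjusted p = 0.398). Both matrix genes passed on the higher side, Calb1 at 0.38 ± 0.06 and Epha4 at 0.17 ± 0.05, but with the number of cells they stood at -0.01 and -0.22, and with library size at 0.12 and -0.09, where Calb1 did not pass. Epha4 did not pass either with glial and vascular genes left out, with stricter gates or in cells with at least 10 Ppp1r1b transcripts.

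Other groups divided as follows. Activity-regulated genes had 4 of 6 higher and 0 lower, with Fos at 1.01 ± 0.09 and Gadd45a at 0.75 ± 0.09. Synaptic release genes had 6 of 9 higher and 2 lower, with Rab3b at 1.19 and Rims3 at 0.59. Guidance and adhesion genes had 11 of 24 higher and 6 lower, with Slit2 at 0.96 and Cntn6 at 0.85. Calcium-binding protein genes had 5 of 10 higher and 4 lower, with Hpcal1 at 0.84. The neurotrophic receptor gene Gfra2 was at 0.92 and the membrane protein gene Lamp5 at 0.77. These calls are relative to a median of -0.07 over all genes, and the split of 97 against 106 became 65 against 148 with library size (median -0.33) and 45 against 173 with the number of cells (median -0.45).

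Transcripts of other cell types moved with this comparison. Of 13 endothelial genes, 12 were lower in members and 0 higher, and their summed level was 3.06 to 5.33 transcripts per member and 7.04 to 8.79 per Penk-class cell over sections. Of 8 astrocyte genes, 6 were lower and 0 higher, with a summed level of 8.09 to 10.1 per member and 15.9 to 19.6 per Penk-class cell. Aqp4, the astrocyte water channel gene, was at -0.73 ± 0.06. Pglyrp1 (-1.14), Emcn (-1.10), Nostrin (-1.04) and Cd93 (-1.03), which are endothelial genes, stood among the 10 largest decreases, with Car4 (-0.96), Pthlh (-0.95) and Ccdc141 (-0.94). In cells with at most 10% of transcripts from oligodendrocyte-lineage, astrocyte, microglial and endothelial genes (85.5% of members and 63.6% of Penk-class cells), 146 genes passed. Nostrin and Aqp4 were among them, while Emcn, Cd93 and Pglyrp1 did not pass. The limit itself counts these endothelial and astrocyte genes, so a loss among them is partly built in. Bcl11b (0.06), Calb1 (0.13) and Sema5b (0.29) did not pass there either, and Gucy1a1 (-0.30) and Epha4 (-0.24) passed as lower in members. Col6a1, Foxp2, Strip2, Grik3, Nell1 and Necab1 passed with the same direction in those cells. That limit does not count fibroblast genes, a list that holds Col6a1. What neighbouring cells contributed to the transcripts of a member was not tested.

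To describe how members differ among themselves, each section's members were ranked by Pdyn transcripts per total transcripts, and the upper tertile was set beside the lower. Each holds 971 cells, with 8.07 Pdyn transcripts per cell in the upper and 2.71 in the lower tertile, and a tertile is a range and not a type: 346 members lie within 10% of the upper boundary. Ranking by share also sorts cells by depth, with medians of 326 transcripts in the upper and 419 in the lower tertile. Of 236 genes tested, 108 passed (45.8%), 51 higher in the upper tertile (21.6%) and 57 lower (24.2%). All 3 striosome genes outside the rule were higher in the upper tertile, with a median of 1.12 beside -0.10 over all genes.

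Sema5b gave 1.95, 2.21 and 2.51 per 1000 transcripts in the upper tertile (lowest, median and highest section), against 0.590, 1.16 and 1.32 in the lower. Its groups did not overlap, and the upper tertile was higher by 1.31 ± 0.14 on the log2 scale (SE, edgeR adjusted p = 3.13e-06). Oprm1 gave 1.21, 1.65 and 2.64 per 1000 in the upper tertile and 0.617, 0.998 and 1.25 in the lower (1.12 ± 0.19, edgeR adjusted p = 2.21e-04). The groups of Oprm1 overlapped, since posterior replicate 1 gave 1.21 in the upper and 1.25 in the lower tertile, while the 6 other sections were higher in the upper. Foxp2 gave 13.95, 14.7 and 15.5 per 1000 in the upper tertile and 9.31, 10.8 and 11.5 in the lower (0.67 ± 0.06, edgeR adjusted p = 9.15e-07). Per cell, Foxp2 averaged 4.89 ± 0.493 in the upper and 4.59 ± 0.252 in the lower tertile, and scaled by the number of cells it did not pass (0.09, edgeR adjusted p = 0.331).

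Col6a1 had the largest increase, at 11.7 ± 1.10 per 1000 transcripts in the upper and 5.21 ± 0.962 in the lower tertile (SD, n = 7 each). Its log2 difference was 1.38 ± 0.08 (SE, edgeR adjusted p = 2.20e-09). Plcxd3, a phospholipase-domain gene, was at 1.10 ± 0.17, Strip2 at 0.99 ± 0.07 and Sema3e at 0.86 ± 0.08. Plcxd3 was lower per 1000 transcripts in the upper tertile of posterior replicate 3 (2.77, against 3.10 in the lower). Col6a1, Sema5b, Oprm1, Plcxd3, Strip2 and Sema3e passed in the same direction under each scaling, and also where tertiles were drawn on raw Pdyn counts. Khdrbs2 (0.82), Cpne6 (0.80), Pdia5 (0.78) and Rasl10a (0.76) did not pass when scaled by the number of cells.

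The 7 striatal genes all passed on the higher side, with a median of 0.37, among them Wfs1 at 0.61, Pde7b at 0.47, Foxp1 at 0.37, Meis2 at 0.36, Bcl11b at 0.31 and Gucy1a1 at 0.29. Scaled by the number of cells, Pde7b, Foxp1, Meis2, Bcl11b and Gucy1a1 were lower in the upper tertile, by values between -0.11 and -0.29, so their direction belongs to the scale. Wfs1 did not pass on that scale (0.03, edgeR adjusted p = 0.764), and with library size Bcl11b (0.10) and Gucy1a1 (0.09) did not pass. Per cell, Foxp1 averaged 7.53 ± 1.37 transcripts in the upper and 8.79 ± 2.09 in the lower tertile. Of the matrix genes, Calb1 was higher (0.46 ± 0.10, and -0.12 with the number of cells) and Epha4 lower (-0.23 ± 0.08, edgeR adjusted p = 0.0314). The call of Epha4 was lost in DESeq2 (adjusted p = 0.0534), without the section block (edgeR adjusted p = 0.0576), on sums per replicate number with the replicate block (-0.13, edgeR adjusted p = 0.323), without the filter on low counts, without the genes of the rule and in cells of 200 to 800 transcripts. It was also lost without posterior replicate 1 (-0.24), intermediate replicate 1 (-0.21), intermediate replicate 2 (-0.13) or anterior replicate 2 (-0.22), and the value turned to 0.13 with tertiles of raw Pdyn. Grik3 was lower (-0.70 ± 0.15), a call lost in members with at least 10 Ppp1r1b transcripts (-0.44, edgeR adjusted p = 0.0512), and Pcp4 did not pass (-0.19 ± 0.09). With library size 32 genes were higher and 101 lower (median -0.30), and with the number of cells 6 and 186 (median -0.69).

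**Figure D3:**
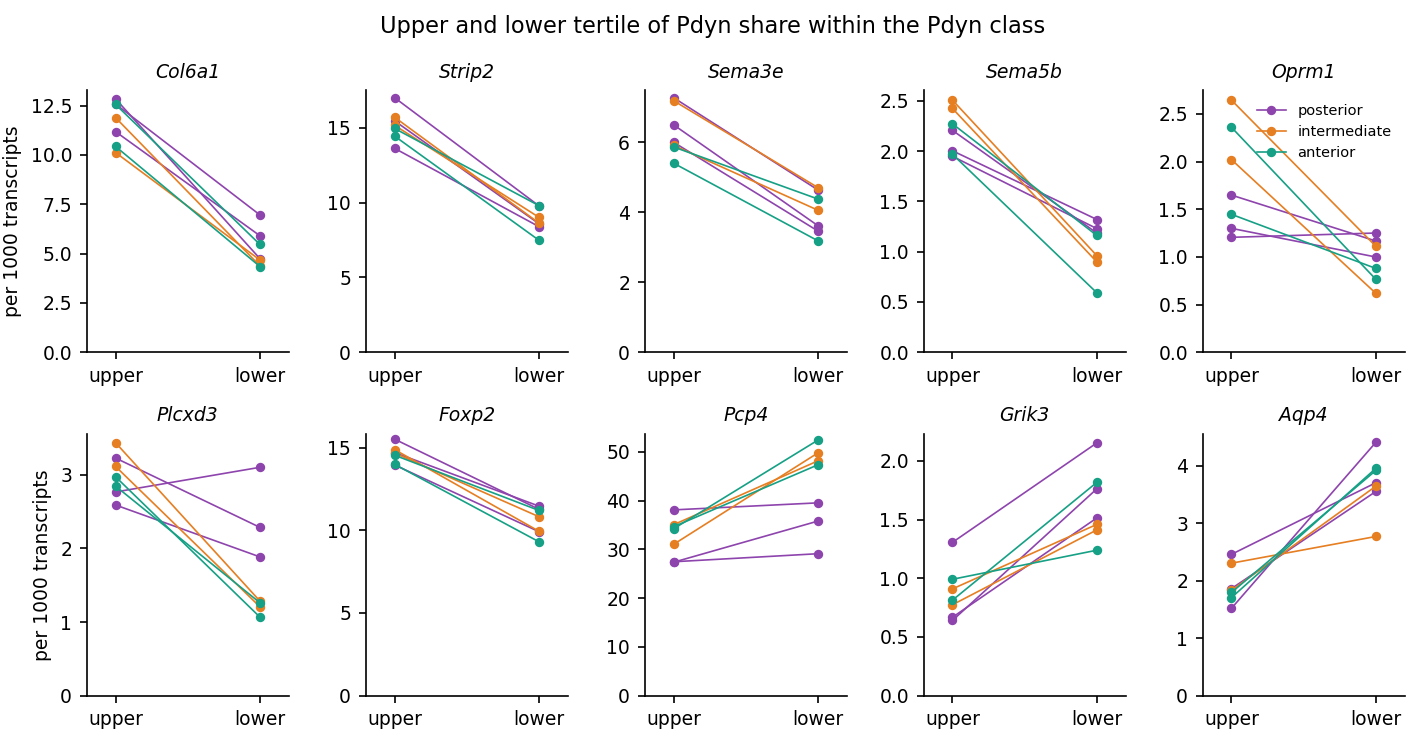
Transcripts per 1000 in the upper and the lower tertile of Pdyn share for 10 genes, with 1 line per section coloured by position. Lines of Col6a1, Strip2, Sema3e, Sema5b and Foxp2 fall toward the lower tertile in all 7 sections, those of Oprm1 and Plcxd3 in 6 of 7, and those of Grik3 and Aqp4 rise.

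Glial and vascular transcripts moved with the tertiles too. Of 11 endothelial genes tested, 10 were lower in the upper tertile and 0 higher, with a summed level of 1.34 to 2.23 transcripts per cell in the upper and 3.85 to 8.96 in the lower. Of 8 astrocyte genes, 5 were lower and 0 higher (4.16 to 6.91 per cell in the upper and 10.5 to 15.6 in the lower tertile). Cldn5 (-1.28), Nr2f2 (-1.24), Hapln1 (-1.19), Dner (-1.09), Acvrl1 (-1.08), Kdr (-1.02) and Slc39a12 (-0.98) stood among the 10 largest decreases. Hapln1 and Dner are on no glial or vascular list, and Nr2f2 is on the amygdala list as well as the mural cell list. Acvrl1, of the endothelial list, also led sub-cluster 2, described below. Cldn5 was low there, at 0.101 held-out transcripts per cell against 0.286 in other members. With tertiles drawn among the 2498 members of at most 10% glial and endothelial transcripts, 71 genes passed, 32 higher and 39 lower, and Cldn5, Kdr, Bcl11b (0.10) and Gucy1a1 (0.06) did not. The limit counts Cldn5 and Kdr, so their loss is partly built in. Acvrl1 and Slc39a12, which it also counts, still passed. Pcp4 passed there as lower in the upper tertile (-0.42). Sema5b, Oprm1, Foxp2 and Col6a1 passed with the same direction there.

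Members were also clustered on a random part of their transcripts (50% in expectation) without the genes of the rule, and described on the part held out. This gave 9 sub-clusters, which are a description without a test. Sub-cluster 1 held 631 cells (21.6%, from 12.2% to 30.2% of a section's members) and was led by Sema5b, Oprm1 and Plcxd3. Its cells held 0.542 Oprm1 transcripts in the held-out part, against 0.171 in other members, and 6.15 Pdyn transcripts in all. A like Pdyn level, 6.13, stood in sub-cluster 4, where Oprm1 was at 0.248 against 0.2515 in other members. Sub-cluster 3 held 5.65 Pdyn transcripts, with Oprm1 at 0.0768 against 0.293. Sema5b, Oprm1 and Plcxd3 were also among the 10 largest increases of the upper tertile.

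Sub-cluster 2 (584 cells, 19.99%) was led by Acvrl1, Pcp4, Syt2 and Gsg1l, with 13.6 held-out Pcp4 transcripts per cell against 6.29 in other members, and it had the most Ppp1r1b (28.5 per cell) and a lower Pdyn level of 4.40. Sub-cluster 3 (573 cells, 19.6%) was led by Kctd8, Gm19410, Col6a1 and Fos. Sub-cluster 4 (492 cells, 16.8%) was led by the peptide gene Crh, the neuropeptide Y receptor gene Npy2r, Wfs1, Hpcal1 and Calb1. Its cells held 4.66 Wfs1 and 0.335 Crh transcripts in the held-out part, against 1.76 and 0.0189 in other members. Nts, like Crh a gene of the amygdala and extended amygdala list, stood at 0.258 against 0.118. Sub-cluster 5, described below, held more Nts than sub-cluster 4. Of the 4 genes of that list tested, 2 were lower in members than in other GABAergic cells and 0 higher. Over all genes 46.7% were lower and 36.3% higher there, so this count says little. Against Penk-class cells 2 were lower and 1 higher, beside 36.7% lower and 33.6% higher over all genes. Bcl11b stood at 2.78, 3.97, 3.74 and 3.14 held-out transcripts per cell in sub-clusters 1 to 4, against 3.14, 2.83, 2.89 and 3.04 in the members outside each. Wfs1 differed more among them, with 1.05 held-out transcripts per cell in sub-cluster 1 against 2.57 in other members. Strip2 was high in sub-cluster 1, at 3.44 against 1.86 (log2 share ratio 1.09).

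Sub-cluster 5 (134 cells, 4.59%) went against the label. It was led by Cpne4, Cbln4, Btbd11 and Calb2, with 1.25 held-out Foxp1 transcripts per cell against 4.33 in other members and 1.93 of Pde7b against 5.48, and its Ppp1r1b level was 7.06 per cell. Oprm1 was high in it too, at 0.806 held-out transcripts per cell against 0.224 in other members. Of its other striatal genes, Bcl11b stood at 1.72 against 3.12 in other members, Meis2 at 8.66 against 10.01 and Wfs1 at 2.99 against 2.21, so these genes did not all move one way. Sub-cluster 6 (146 cells) was led by Spag16 and Trpc4 with the astrocyte genes Slc39a12, Aqp4 and Ntsr2. It too held less of several striatal genes, with 1.77 held-out Foxp1 transcripts per cell against 4.32 in other members, 2.06 of Pde7b against 5.49 and 1.61 of Bcl11b against 3.13, and 11.2 Ppp1r1b transcripts per cell. Its Wfs1 level was 2.53, against 2.23 in other members. Sub-clusters 7 to 9 were led by genes of other cell types: sub-cluster 7 (104 cells) by endothelial genes, sub-cluster 8 (228 cells) by the oligodendrocyte genes Opalin and Sox10, and sub-cluster 9 (29 cells) by microglial genes. The mean Pdyn level of sub-clusters 6 to 9 was 3.40, 3.07, 3.45 and 2.93 transcripts per cell in that order.

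**Figure D4:**
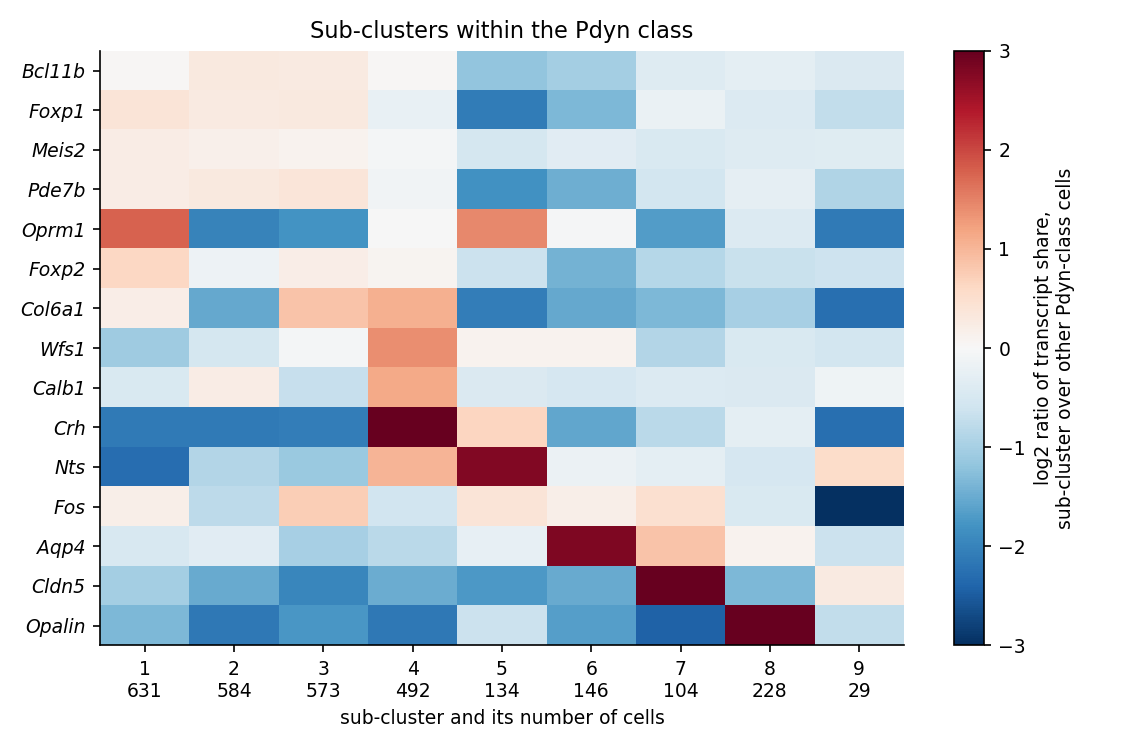
Log2 ratio of transcript share in each sub-cluster over the other Pdyn-class cells, for 15 genes, on held-out transcripts, with a colour scale that ends at -3 and 3. Oprm1 is high in sub-clusters 1 and 5, and sub-cluster 4 stands out by Crh and Wfs1. Sub-cluster 5 stands out by high Nts and low Foxp1 and Pde7b, and sub-clusters 6 to 8 by Aqp4, Cldn5 and Opalin.

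The study's own factor was position, and members of posterior sections were compared with those of anterior sections. Of 281 genes tested, 0 passed (0.0%), in edgeR as in DESeq2, with the lowest edgeR adjusted p at 0.167. At an unadjusted p under 0.05 stood 48 genes in edgeR and 44 in DESeq2, and the median SE of a log2 difference was 0.23. Striatal genes lay between -0.40 (Foxp1) and 0.23 (Wfs1). Foxp1 gave 7.68, 6.09 and 7.07 transcripts per member in posterior, 7.89 and 10.2 in intermediate and 7.94 and 9.80 in anterior sections. Every posterior value stood below both anterior values, and the adjusted p was 0.174 in edgeR. With so few sections such a separation says little. Lamp5 (-0.07) and Rims3 (0.10), with small log2 differences, also had groups that did not overlap on TMM-scaled counts. On the first slide alone, with 1 posterior section, 0 genes passed.

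Pcp4 gave 16.2, 11.1 and 10.6 transcripts per member in posterior, 16.5 and 16.6 in intermediate and 17.4 and 16.6 in anterior sections. The 2 posterior sections of the second slide gave the lowest values, and the log2 difference of -0.49 ± 0.15 did not pass (edgeR adjusted p = 0.167). Foxp2 gave 4.84, 4.37 and 4.80 transcripts per member in posterior, 4.56 and 4.90 in intermediate and 4.75 and 4.55 in anterior sections, a difference of -0.05 ± 0.11. The striosome genes Oprm1 (-0.24 ± 0.24) and Sema5b (-0.13 ± 0.17) and the matrix genes Calb1 (-0.45 ± 0.17) and Epha4 (-0.15 ± 0.12) did not pass either. Crh, named after its values were seen, had the largest difference at 1.96 ± 0.60 (edgeR adjusted p = 0.167). It gave 0.206, 0.190 and 0.581 transcripts per member in posterior, 0.0877 and 0.0220 in intermediate and 0.0936 and 0.0659 in anterior sections. The intermediate and anterior values lie under the upper bound of 0.116 counts per control probe, and where they lie against the actual control level is not known.

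Whether position acts differently on the 2 peptide classes was tested as an interaction. Of 289 genes, 0 passed (0.0%) in edgeR and in DESeq2, with 16 and 8 genes at an unadjusted p under 0.05 and a median SE of 0.23. Wfs1 was at -0.43 ± 0.13 (edgeR adjusted p = 0.729), and without posterior replicate 3 it passed at -0.56 (edgeR adjusted p = 0.0430). Wfs1 gave 5.62, 4.58 and 5.40 transcripts per member in posterior and 4.95 and 3.57 in anterior sections. In Penk-class cells it gave 4.71, 3.17 and 5.15 in posterior and 2.84 and 1.98 in anterior sections.

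Members made up 0.639%, 0.606% and 0.470% of all cells in posterior, 0.909% and 0.899% in intermediate and 0.822% and 0.959% in anterior sections. The posterior sections lay below the others, and posterior minus anterior was -0.319 percentage points (two-sided exact permutation test, p = 0.10, the smallest that 3 against 2 sections allow). On the first slide alone it was -0.252, with 1 posterior section. A section holds whatever regions its plane crosses, so the share describes sections and not a region. The share also depends on depth, because the rule counts raw transcripts. With each cell thinned to 200 transcripts, the rule took 4151 cells, the shares were 1.44%, 1.43% and 1.29% in posterior and 1.73% and 1.29% in anterior sections, and the difference was -0.121 (exact p = 0.60). Thinning left out 9136 to 19796 shallower cells per section.

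Of the Pdyn and Penk classes together, members were 13.8%, 13.5% and 9.79% in posterior, 17.1% and 10.8% in intermediate and 14.1% and 10.9% in anterior sections. The positions overlapped, and posterior minus anterior was -0.145 percentage points (two-sided exact permutation test, p = 1.0). Thinned to 200 transcripts per cell, the difference was 3.77 (exact p = 0.20). In intermediate and anterior sections, replicate 1 gave the higher share of the pair.

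**Figure D5:**
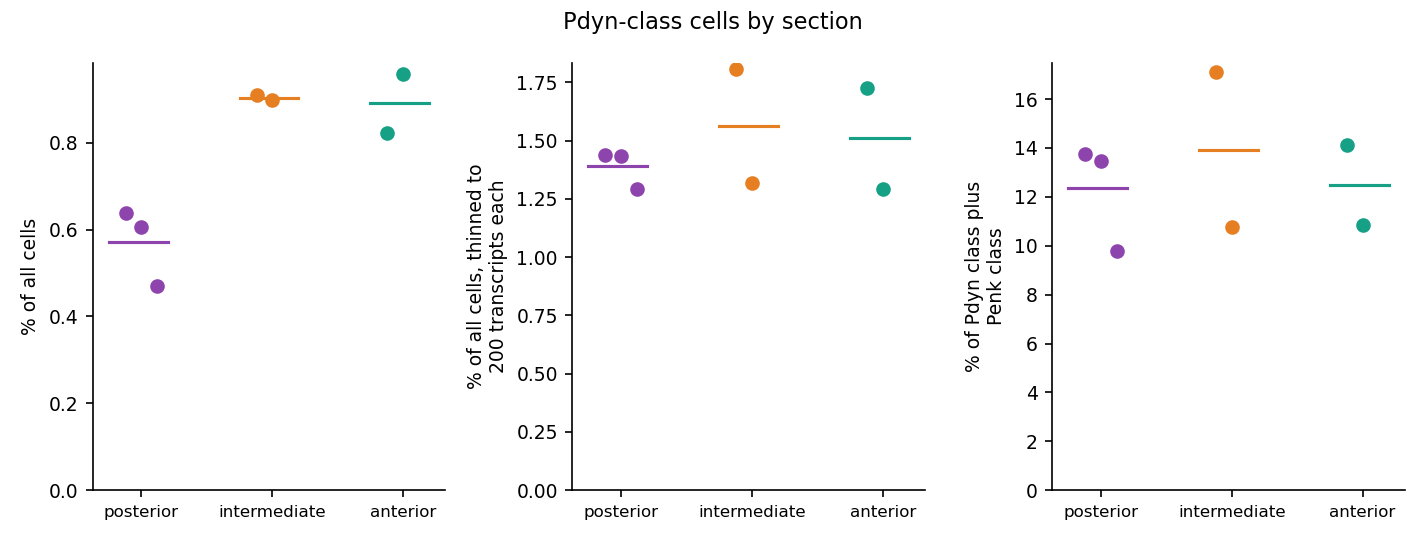
Pdyn-class cells as a percent of all cells, as a percent of all cells thinned to 200 transcripts each, and as a percent of Pdyn-class plus Penk-class cells. Points are sections and bars are position means. Posterior sections lie lowest in the first panel (0.470% to 0.639%) and overlap with anterior sections in the other panels.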

How the data were processed

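The authors deposited raw counts, one whole number for each gene in each segmented cell, with a cell table that names the section and holds control probe counts. The submitters' processing notes list Seurat with no version. How cells were segmented or filtered was not given in the sources used here. Summed counts equalled the deposited total in 100% of cells. The members and all gene lists were chosen with earlier results of these data known, so no count of them is independent support.

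Counts were summed per section and class and tested with edgeR 4.0.16 (R 4.3.3): TMM scaling after filterByExpr, a quasi-likelihood F test, the section as a block for class, tertile and interaction tests, and Benjamini-Hochberg adjustment over all genes tested, with a threshold of 0.05. The 8 genes of the rule stayed in the fits and were never counted as calls. An SE is the log2 difference divided by the square root of the F statistic. Named genes are examples from a rule: among genes past the threshold, with at least 0.2 transcripts per cell in one group and one direction in all sections, the 10 largest in each direction and up to 4 per list; genes of the striatal, pathway, striosome, matrix and opioid lists may be named in any case. Crh was named outside it. The fits were also run on simulated counts, drawn around the pooled means with a fixed spread and no section effect. Of genes given a 2-fold change there, 100% were recovered in the class and tertile tests. For position 90.7% were recovered, and for the interaction 76.4%. In the data 5 genes had a position difference over 1 in absolute log2. These rates therefore do not give the power for the smaller differences seen. Sub-clusters used scanpy (20 components, 15 neighbours, Leiden resolution 0.5). No doublet caller was run, and transcripts of adjoining cells can fall inside a segmented outline. Cell positions were not used here. Of 297 gene symbols, 296 matched the RefSeq gene table. Between sections with the same replicate number, deviations from position means in the members correlated across genes at 0.133, 0.135 and 0.179. Where a position has 2 sections, their deviations mirror each other, and no reference from unlike numbers was computed. These correlations therefore cannot show pairing. As an alternative, the numbers were treated as pairing in an added block. Alternatives were DESeq2 1.42.0, other scaling, filters, gates and depths, and leaving out each section. Scaling by the number of cells, Ppp1r1b of at least 10 and the limit on glial transcripts were chosen after seeing the data.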

Additional observations from a re-analysis of the deposited data

Results flagged for a closer look

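In a group of 7 sections, 1 value can stand apart by chance in about 1 of 20 groups, and 104 sets of values were examined. The median member of posterior replicate 3 held 300.5 transcripts, below the 355 to 390.5 of the other sections. Between members and Penk-class cells, the log2 difference of Gfra2 was 1.70 in anterior replicate 2 and that of Lamp5 was 0.93 in intermediate replicate 2, each apart from the other 6 sections. Between members and other GABAergic cells, the log2 difference of Calb1 in posterior replicate 3 was 0.43, apart from the others.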

How the results depend on the processing

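Of 130 tests of named genes, 102 kept their direction and their side of the threshold under every alternative tried. Leaving out each section in turn gave 196 to 203 calls between members and Penk-class cells, 230 to 236 between members and other GABAergic cells, 91 to 115 between tertiles, 0 between positions and 0 to 1 for the interaction, where the 1 call, without posterior replicate 3, was Wfs1 at -0.56. Between tertiles, 71 genes passed with the limit on glial transcripts and 192 with the number of cells as scale. Sums per replicate number with the replicate block gave 189, 218 and 100 calls for the Penk, other GABAergic and tertile comparisons, and the replicate block added to the position fit gave 0, so the block changed no other count by over 1.5 times. Stricter gates (at least 4 Pdyn and 0 Penk transcripts, 356 members) gave 144 calls against the Penk class. Directions that turned between members and Penk-class cells were Bcl11b (-0.064), Calb1 (-0.009), Gucy1a1 (-0.33), Pcp4 (-0.27) and Epha4 (-0.22) with the number of cells. With library size Gucy1a1 was at -0.19, Pcp4 at -0.13 and Epha4 at -0.087. With the limit on glial transcripts Gucy1a1 was at -0.30 and Epha4 at -0.24, and with stricter gates Pcp4 was at -0.35 and Epha4 at -0.051. Between tertiles, with the number of cells, Pde7b was at -0.11, Foxp1 at -0.22, Bcl11b at -0.28, Gucy1a1 at -0.29, Meis2 at -0.23 and Calb1 at -0.12, and Epha4 was at 0.13 with tertiles of raw Pdyn. For these the cause was not tested beyond the change of scale or cells itself. The share of all cells, posterior minus anterior, was -0.121 percentage points when thinned, -0.0489 with stricter gates and -0.387 to -0.250 when a section was left out. With all cells that met the condition on Gad1 and Gad2 as denominator it was -0.675. The share of the 2 peptide classes was 3.77 when thinned and -1.79 to 1.499 when a section was left out. With 3 against 2 sections no share can pass the threshold, and genes under 0.116 transcripts per member, the upper bound per control probe, may or may not exceed the control level.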
